A study of Mus musculus with 28 samples.

Results

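A set of 10 regulators of the epithelial-mesenchymal transition was followed by their gene names in 3 expression tables of mouse intestinal cells. The 10 genes were Snai1, Snai2, Zeb1, Zeb2, Twist1, Cdh2, Hmga2, Esrp1, Grhl2 and Ovol1. All 10 were found, among 29413 genes in the table of BMP-treated organoids and 55416 in each of the other 2 tables. The samples were small-intestinal organoids, which are epithelial cultures grown in gel, of genotype WT (C57BL/6), and mesenchymal cells of the intestine. Organoids received a single ligand of the Tgfb superfamily at 500 ng/ml for 24 h or stayed untreated. Crypts of all organoid groups were first grown in ENR medium, usually EGF, Noggin and R-spondin, and the sources used here do not state the medium during treatment. One table held 4 untreated, 4 BMP2, 3 BMP3, 3 BMP4, 3 BMP5 and 3 BMP7 samples. A second table held 3 untreated and 3 Tgfb samples. The third held 1 sample of freshly isolated Pdgfra-positive mesenchymal cells of PdgfraH2BeGFP mice and 1 sample of such cells after culture, immortalisation with a retrovirus carrying an HPV E6 gene, and a sort for high eGFP. Noggin binds and blocks several BMPs. The labels do not say that replicates came from separate mice or cultures, so p-values measure only the spread between these samples, which may be technical. The question asked here was whether the ligands move these regulators within 24 h.

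In an epithelial-mesenchymal transition, cells give up adherens junctions and polarity and take on a motile, fibroblast-like state. The transcription factors Snai1, Snai2, Zeb1, Zeb2 and Twist1 drive it by repressing junction genes such as Cdh1, and Tgfb is the best known inducing ligand. Esrp1, Grhl2 and Ovol1 act on the opposite side and keep cells epithelial. In the intestine, BMP signals from the mesenchyme are known for restraining crypt cells and for driving differentiation along the villus.

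Samples of the BMP table held 21358620 to 24784834 reads. After the authors' scaling, a single read equalled 0.826 to 1.28 normalized counts, depending on the sample. Normalized counts summed to 19250832 to 20518942 in untreated samples, 26268636 to 29004576 in BMP2 samples and 25574455 to 26979289 in BMP4 samples. Forcing every sample to the same total moved the median gene by -0.45 on the log2 scale for BMP2 and by -0.392 for BMP4, so member changes are also given relative to that shift where it matters. Intestinal epithelium markers (10 genes) summed to 6303 to 7457 TPM over the 6 organoid samples of the Tgfb table and to 1.67 TPM in fresh mesenchymal cells. In the BMP table their sum was 132700 to 144400 normalized counts in untreated organoids, 301700 to 377400 with BMP2, 354400 to 403700 with BMP4, 159500 to 191100 with BMP5 and 167400 to 190800 with BMP7, none of which overlapped untreated. Fibroblast markers (10 genes) summed to 0.26 to 0.358 TPM in untreated and 0.67 to 1.37 TPM in Tgfb-treated organoids, against 17060 TPM in fresh mesenchymal cells. The fibroblast genes Dcn and Lum were listed at 0 in all 6 organoid samples of the Tgfb table, and had no row under those names in the BMP table. There the sum over the other 8 fibroblast genes was 12.4 to 50.5 normalized counts in untreated and 34.6 to 68.3 in BMP2-treated organoids. Immune markers (7 genes) summed to 69.2 to 86.2 normalized counts in untreated organoids, 91.8 to 185 with BMP2 and 142 to 231 with BMP4. In the Tgfb table the immune sum was 2.003 to 2.597 TPM in untreated and 3.42 to 3.54 TPM in treated samples. The part of these marker levels in the results was not tested.

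Of the 10 regulators, 4 (Hmga2, Esrp1, Grhl2 and Ovol1) had enough signal to pass the filter on low values in both organoid tables. The filter was a mean of at least 10 normalized counts or at least 1 TPM over a table. By limma, with Benjamini-Hochberg adjustment over all genes tested and a threshold of 0.05, BMP2 changed 3 of these 4, of which 2 were higher and 1 lower. Of all 14746 genes tested, 36.8% were higher and 38.4% lower with BMP2. BMP4 also changed 3 of 4, with 1 higher and 2 lower, beside 33.7% and 31.4% of all genes. BMP7 changed 2 of 4, with 1 higher and 1 lower, beside 19.2% and 13.2%. With the replicate number as a block both BMP7 calls held, and Ovol1 was called lower as well. BMP5 changed 0 of 4, beside 16.5% higher and 9.87% lower, and with the replicate number as a block it changed 2, both lower. BMP3 changed 0 of 4, and over all genes 0% were called. That comparison had 110 genes at an unadjusted p under 0.05 by limma and 108 by edgeR, which called 0. Tgfb changed 1 of 4, which was lower, beside 27.4% higher and 29.3% lower of 12959 genes. The members' shares were of the order of the shares over all genes, so the counts say little about these regulators as a set, and the results lie in the single genes.

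**Figure D1:**
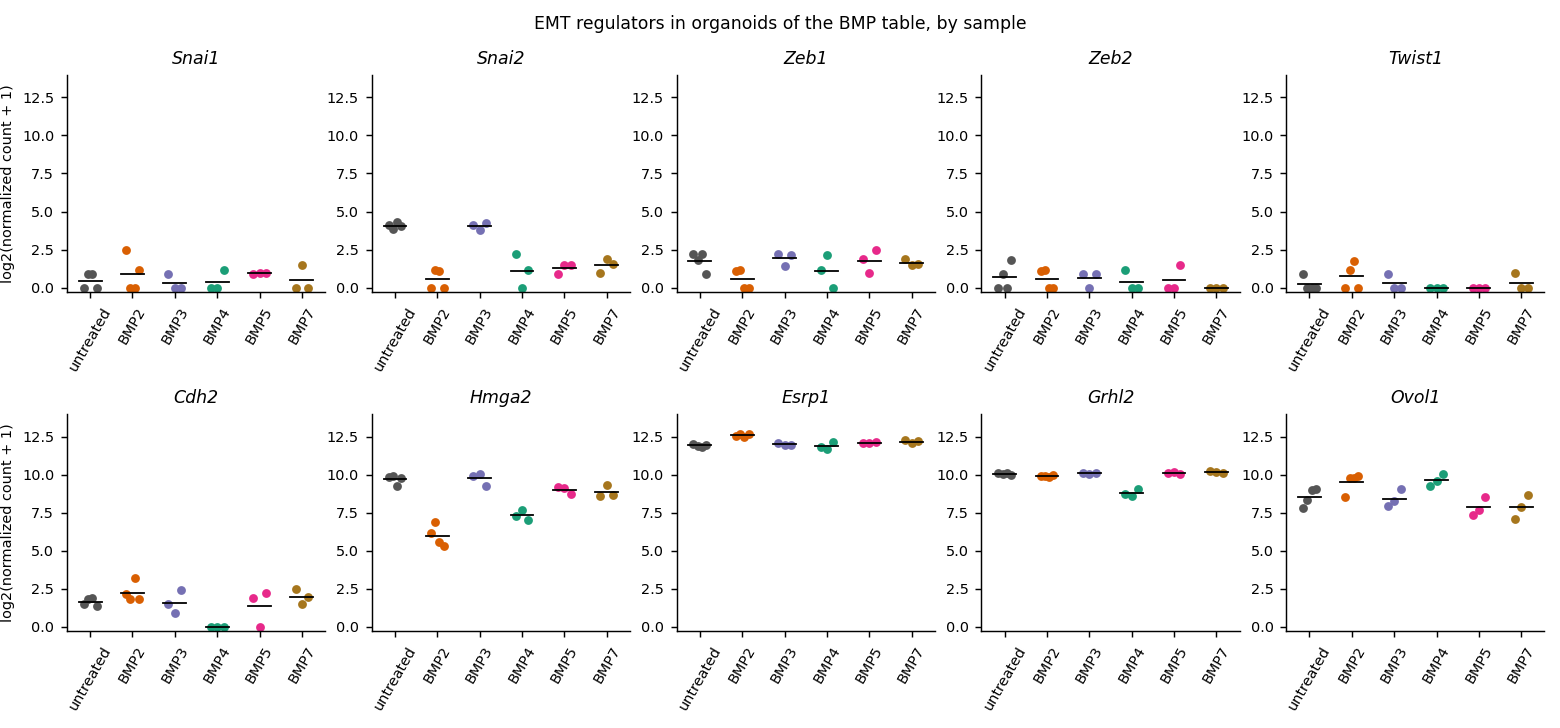
Each panel plots one regulator in the organoids of the BMP table, with log2(normalized count + 1) on the vertical axis and treatment on the horizontal axis. Points are samples (4 untreated, 4 BMP2, 3 each of the others) and lines are group means. Hmga2 is lowest with BMP2 and BMP4, Grhl2 is lowest with BMP4, and Snai1, Zeb1, Zeb2, Twist1 and Cdh2 lie near 0 in every group.

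The classical inducers were close to absent in organoids, with or without ligand. Snai1 (ENSMUSG00000042821), a zinc-finger repressor of Cdh1, had 14 reads over all 20 samples of the BMP table, in 10 of them, and at most 4 reads in any sample. Zeb2 (ENSMUSG00000026872), a zinc-finger homeobox repressor, had 11 reads in all and at most 3 in a sample. Twist1 (ENSMUSG00000035799), a basic helix-loop-helix factor, had 6 reads in all and at most 2 in a sample. Each of these 3 genes thus lay at or under about 3 reads, the limit that a count of 0 allows, in all samples but the BMP2 sample with 4 Snai1 reads. Differences between treatments were not detectable at this depth for Snai1, Zeb2 and Twist1. In the Tgfb table, Snai1 was at 0.035, 0.066 and 0.028 TPM in untreated replicates III, II and I and at 0, 0.075 and 0.068 TPM in the Tgfb replicates of the same numbers. The groups overlapped, as they did for Zeb2 and Twist1.

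Zeb1 (ENSMUSG00000024238), the paralog of Zeb2, had 44 reads in 17 of 20 samples and at most 5 in any sample. It had 12 reads over the 4 untreated samples, 2 over 4 BMP2 samples, 10 with BMP3, 4 with BMP4, 9 with BMP5 and 7 with BMP7. The BMP2 samples had 23.6% of the untreated rate, with a 95% interval from counting of 2.56% to 106%. With the filter lowered to a mean of at least 1, limma gave an adjusted p of 0.0441 for BMP2 against untreated, and edgeR gave 0.0648. In the Tgfb table Zeb1 was at 0.057, 0.041 and 0.0069 TPM in untreated replicates III, II and I and at 0.023, 0.096 and 0.082 TPM with Tgfb, and the groups overlapped.

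The same genes were abundant in mesenchymal cells, which shows the scale of the organoid values. Fresh mesenchymal cells had 16.1 TPM of Snai1, 32.0 TPM of Zeb1, 58.5 TPM of Zeb2 and 9.81 TPM of Twist1. The immortalised cells had 25.5, 35.5, 46.7 and 13.7 TPM of the same genes. The highest value in any organoid sample of the Tgfb table was 0.465% of the fresh mesenchymal level for Snai1, 0.3% for Zeb1, 0.0523% for Zeb2 and 0.358% for Twist1. Organoid and mesenchymal tables were normalized separately, so these shares compare levels across tables and carry no test. Esrp1, Grhl2 and Ovol1 showed the opposite pattern and were listed at 0 in both mesenchymal samples. Per length, on the TPM scale, Esrp1 was the most abundant regulator in untreated organoids at 65.7 ± 4.81 TPM (SD, n = 3). Grhl2 followed at 16.3 ± 0.529, Hmga2 at 12.9 ± 0.38 and Ovol1 at 9.17 ± 3.09 TPM (SD, n = 3 each). The ranges of Hmga2 and Ovol1 overlapped, while those of Esrp1 and Grhl2 did not overlap their neighbours'.

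**Figure D2:**
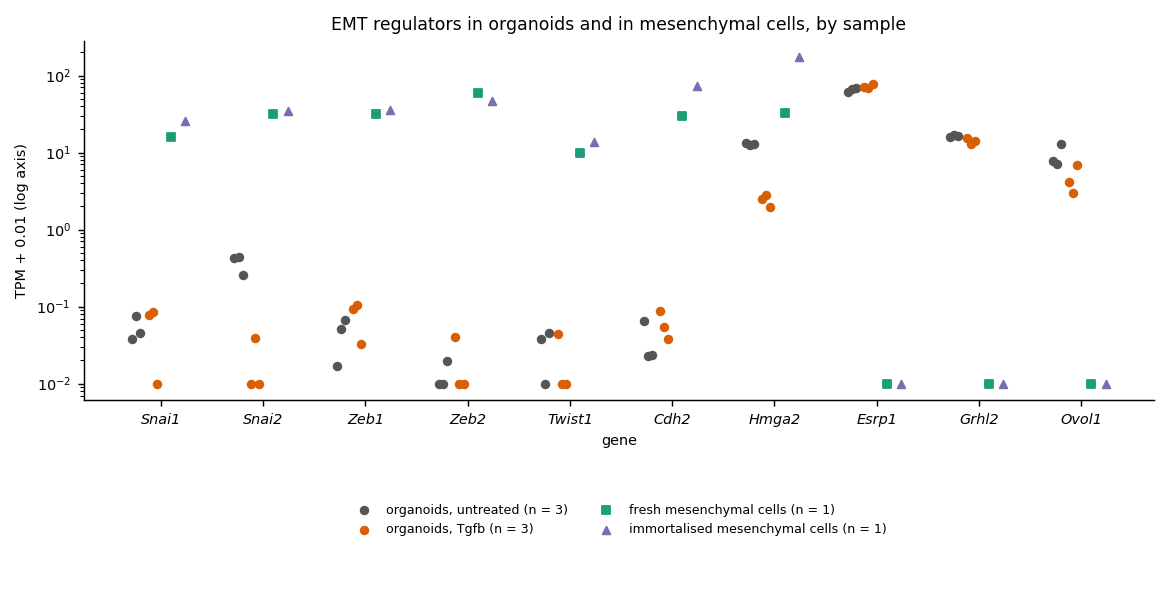
TPM + 0.01 on a log axis for each regulator in 3 untreated and 3 Tgfb-treated organoid samples and in 1 fresh and 1 immortalised mesenchymal sample, each point being a sample. The inducers and Cdh2 lie under 0.5 TPM in organoids and above 9 TPM in mesenchymal cells, while Esrp1, Grhl2 and Ovol1 are above 2.9 TPM in organoids and at 0 in mesenchymal cells. Hmga2 is at 12.5 to 13.3 TPM in untreated organoids, 1.93 to 2.83 TPM with Tgfb, and 32.2 and 174 TPM in mesenchymal cells.

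Snai2 (ENSMUSG00000022676, also called Slug), the inducer with the most signal in untreated organoids, was at a few reads or none with BMP2, BMP4, BMP5 and BMP7 and near 0 TPM with Tgfb. Untreated replicates II, III, IV and VI held 16.0, 13.3, 18.6 and 15.7 normalized counts. BMP2 replicates in the same order held 0, 1.28, 1.18 and 0. BMP4 replicates II, III and VI held 3.56, 0 and 1.20, BMP5 replicates 0.897, 1.85 and 1.82, and BMP7 replicates 0.907, 2.73 and 1.92. BMP3 replicates II, III and IV held 16.0, 12.7 and 18.4. No sample with BMP2, BMP4, BMP5 or BMP7 reached an untreated sample, and BMP3 samples lay within the untreated range or just below it. In reads, the 4 untreated samples had 74, the 4 BMP2 samples 2, and the 3 samples each of BMP4, BMP5 and BMP7 had 4, 5 and 6. The rates were 3.82% of untreated with BMP2 (95% interval 0.454% to 14.3%), 9.88% with BMP4 (2.62% to 26.4%), 9.59% with BMP5 (3.02% to 23.4%) and 11.7% with BMP7 (4.15% to 26.7%). With BMP3 the rate was 98.8% (68.2% to 142%). These intervals cover counting error only.

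The mean of Snai2 over the table was 6.40 normalized counts, under the filter, so its test comes from the lower filter of a mean of at least 1. There limma gave adjusted p-values of 6.60e-07 for BMP2, 2.32e-05 for BMP4, 0.000285 for BMP5 and 0.000368 for BMP7 against untreated, and 1 for BMP3. On the same genes, BMP2 lowered 30.4% of all, BMP4 23.8%, BMP5 6.24% and BMP7 8.95%. Snai2 fell in each of these 4 comparisons. In bulk samples, fewer cells of a type and less RNA per cell cannot be told apart. In the Tgfb table Snai2 was at 0.246, 0.434 and 0.413 TPM in untreated replicates III, II and I, and was listed at 0, 0.029 and 0 TPM with Tgfb. The groups did not overlap, and with no filter limma gave an adjusted p of 0.0039, in a comparison where 14.8% of all genes were lower. In fresh mesenchymal cells Snai2 stood at 31.3 TPM and in immortalised ones at 34.9 TPM, so untreated organoids had 1.16% of the fresh level.

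Cdh2 (ENSMUSG00000024304, N-cadherin), the cadherin that replaces Cdh1 in the mesenchymal state, stayed at a few reads in organoids. Untreated replicates II, III, IV and VI had 10 reads together, BMP2 samples 14, BMP3 samples 8, BMP5 samples 7 and BMP7 samples 10. BMP4 samples had 0 reads in all 3 replicates. The BMP2 replicates II, III, IV and VI held 3.41, 2.56, 8.23 and 2.53 normalized counts, and replicate IV stood apart from the others. At the lower filter limma gave an adjusted p of 0.0124 for BMP4 against untreated, where every sample of both groups lay at or under 3 reads, so no fold is given. For BMP2 against BMP4 the adjusted p by limma was 0.00106 at the same filter. For Tgfb the ranges overlapped, with 0.0137, 0.0128 and 0.054 TPM in untreated replicates III, II and I and 0.028, 0.044 and 0.079 TPM with Tgfb. Fresh mesenchymal cells had 29.7 TPM of Cdh2 and immortalised ones 73.7 TPM.

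Hmga2 (ENSMUSG00000056758), an architectural chromatin protein that acts downstream of Tgfb in the transition of other epithelia, was expressed in untreated organoids and fell with BMP2, BMP4, BMP7 and Tgfb. Untreated replicates II, III, IV and VI had 931, 974, 613 and 897 normalized counts. BMP2 replicates in the same order had 70.4, 119, 47.1 and 39.2, all far below every untreated sample. BMP4 replicates II, III and VI had 155, 209 and 128, also without overlap. Hmga2 fell 13.2-fold with BMP2 (log2 change -3.72, SE 0.286, adjusted p = 8.68e-10 by limma) and 5.20-fold with BMP4 (log2 change -2.38, SE 0.308, adjusted p = 1.97e-06). BMP2 lay below BMP4 by 2.53-fold (adjusted p = 0.000844), again with no overlap between the 7 samples.

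The differences from untreated were smaller in size with BMP5 and BMP7. BMP5 replicates II, III and VI had 576, 570 and 425 normalized counts and BMP7 replicates 382, 637 and 403, and BMP7 replicate III alone lay above the lowest untreated sample, replicate IV at 613. Hmga2 fell 1.82-fold with BMP7 (log2 change -0.86, SE 0.308, adjusted p = 0.0388 by limma). The call ended with no filter (adjusted p = 0.0586), with no intensity trend (0.0514), and without BMP7 replicate II (0.150), BMP7 replicate VI (0.131), or untreated replicate II (0.0787), III (0.0914) or VI (0.0776). With the replicate number as a block the BMP7 fall had an adjusted p of 0.000413. With BMP5 the log2 change was -0.70 (SE 0.308, adjusted p = 0.108). In the blocked fit it was -0.84 with an adjusted p of 0.00219, a fall. Neither BMP5 nor BMP7 has a replicate IV, and the values were 61.9%, 58.5% and 47.4% of the same-numbered untreated sample with BMP5 and 41.0%, 65.4% and 44.9% with BMP7. BMP3 replicates II, III and IV had 960, 1080 and 625 normalized counts, and replicate IV was the low one there as in the untreated group.

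Tgfb lowered Hmga2 too. The untreated replicates III, II and I had 12.9, 12.5 and 13.3 TPM and the Tgfb replicates 1.93, 2.83 and 2.49 TPM. No Tgfb sample came near an untreated one. Hmga2 fell by 2.03 on the log2(TPM + 1) scale (SE 0.118, adjusted p = 3.39e-05 by limma), a scale that understates the change of low genes. In mesenchymal cells Hmga2 stood at 32.2 TPM fresh and 174 TPM after immortalisation and sorting, 5.39 times as high in 1 sample each.

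The promoters of Hmga2, which was expressed in untreated organoids and fell, and Snai1, a textbook Smad target that stayed at the floor, are shown for comparison. They are the 250 bases before the start in the RefSeq promoter table of build GRCm38.p6, at chr10:120476470-120476719 on the minus strand for Hmga2 and chr2:167537945-167538194 on the plus strand for Snai1. Capitals mark CACCTG, the E-box bound by factors of the Snai and Zeb families. The expression files were made on another build, so these coordinates belong to the promoter table alone.
Hmga2: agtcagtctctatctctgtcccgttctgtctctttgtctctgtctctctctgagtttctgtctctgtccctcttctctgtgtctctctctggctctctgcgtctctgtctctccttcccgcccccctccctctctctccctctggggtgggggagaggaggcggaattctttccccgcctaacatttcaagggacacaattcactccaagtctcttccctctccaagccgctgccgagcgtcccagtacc
Snai1: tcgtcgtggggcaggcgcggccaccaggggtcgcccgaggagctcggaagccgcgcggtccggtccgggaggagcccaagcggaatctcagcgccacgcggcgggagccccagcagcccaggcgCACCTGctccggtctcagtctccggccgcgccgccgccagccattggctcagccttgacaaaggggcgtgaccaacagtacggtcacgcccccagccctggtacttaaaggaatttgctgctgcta

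Searches for 4 motifs were made on both strands of the full windows of 300 bases, which run from 250 before to 50 after the start. They were CACCTG, the Smad-binding letters CAGAC, and the GC-rich letters GGCGCC and GGAGCC of BMP-responsive elements. The Snai1 window held 1 CACCTG and 2 GGAGCC, and the Hmga2 window held 0 matches to any of them. Of 32851 promoters in the table, 20.2% held CACCTG, 49.6% CAGAC, 11.9% GGCGCC and 30.8% GGAGCC. Entries were also found for Zeb2 and Twist1, so 4 of the 10 members had one.

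Grhl2 (ENSMUSG00000022286), a grainyhead-like factor that activates Cdh1 and claudin genes and restrains Zeb1, fell with BMP4. Untreated replicates II, III, IV and VI had 1110, 1070, 1130 and 1010 normalized counts. BMP4 replicates II, III and VI had 418, 387 and 522, and no other ligand group had a sample below 927. Grhl2 fell 2.46-fold with BMP4 (log2 change -1.30, SE 0.0886, adjusted p = 8.74e-10 by limma). BMP2 replicates II, III, IV and VI had 975, 959, 927 and 999, all below the untreated samples, with a log2 change of -0.16 (SE 0.082, adjusted p = 0.0827). That difference passed the threshold on the lower side with the same total in every sample (-0.62, adjusted p = 1.28e-06), with quantile normalization (-0.28, 0.00151) and with edgeR (-0.21, 0.0228). BMP2 lay above BMP4 by 2.20-fold (adjusted p = 2.06e-09 by limma). BMP3, BMP5 and BMP7 samples had 1050 to 1210, with log2 changes of 0.01 (95% interval -0.18 to 0.20), 0.05 (-0.14 to 0.23) and 0.09 (-0.09 to 0.28). With Tgfb, Grhl2 had 14.1, 13.1 and 15.3 TPM in replicates III, II and I against 16.5, 16.8 and 15.7 TPM in untreated ones. The groups did not overlap, and the log2 change was -0.20 (95% interval -0.38 to -0.01, adjusted p = 0.0731 by limma). It passed the threshold with quantile normalization (-0.23, adjusted p = 0.0309) and without Tgfb replicate I (-0.25, 0.0458).

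Esrp1 (ENSMUSG00000040728), the splicing factor that maintains epithelial exon choice and is switched off in a full transition, rose with BMP2. Untreated replicates II, III, IV and VI had 4150, 3850, 3610 and 4030 normalized counts. BMP2 replicates in the same order had 5910, 6510, 5640 and 6460, all above every untreated sample. Esrp1 rose 1.57-fold (log2 change 0.65, SE 0.0858, adjusted p = 1.51e-06 by limma). With the same total in every sample the change was 0.19 (adjusted p = 0.0167), and with quantile normalization the call ended at 0.12 (adjusted p = 0.0911).

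BMP4 samples had 3660, 3300 and 4470 normalized counts of Esrp1 in replicates II, III and VI, on both sides of the untreated range. The log2 change with BMP4 was -0.05 (95% interval -0.24 to 0.15, adjusted p = 0.678 by limma), but -0.45 with the same total in every sample (adjusted p = 2.75e-05) and -0.47 with quantile normalization (8.63e-06). BMP2 lay above BMP4 by 1.62-fold (adjusted p = 2.41e-06), and this difference held under both scalings. Esrp1 also rose with BMP7, where replicates II, III and VI had 4930, 4350 and 4650 (log2 change 0.25, SE 0.0927, adjusted p = 0.0480 by limma). That call ended with the same total (0.18, adjusted p = 0.0649), with quantile normalization (0.10, 0.253), with no intensity trend (0.0622), at the lower filter (0.0688) and without BMP7 replicate II (0.181), BMP7 replicate VI (0.111), or untreated replicate III (0.0931), IV (0.120) or VI (0.0643). BMP5 samples had 4350 to 4490 and BMP3 samples 3890 to 4290, with adjusted p-values of 0.177 and 1. With Tgfb, Esrp1 had 77.7, 69.4 and 71.4 TPM in replicates III, II and I against 69.9, 66.7 and 60.4 TPM, overlapping groups (log2 change 0.15, 95% interval -0.05 to 0.35, adjusted p = 0.168). In none of the 6 comparisons with untreated organoids did Esrp1 fall past the threshold on the authors' scaling.

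Ovol1 (ENSMUSG00000024922), a zinc-finger repressor of Zeb1 that favours the epithelial state, was higher with BMP2 and BMP4 and varied with the replicate number. Untreated replicates II, III, IV and VI had 229, 317, 520 and 538 normalized counts. BMP2 replicates in the same order had 362, 886, 883 and 952, and only replicate II lay inside the untreated range. BMP4 replicates II, III and VI had 607, 785 and 1080, all above every untreated sample. Ovol1 rose 1.91-fold with BMP2 (log2 change 0.93, SE 0.391, adjusted p = 0.0385 by limma) and 2.12-fold with BMP4 (log2 change 1.08, SE 0.422, adjusted p = 0.0312).

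Within replicate numbers, Ovol1 with BMP2 was at 158%, 279%, 170% and 177% of the untreated samples II, III, IV and VI, and with BMP4 at 265%, 248% and 201% of II, III and VI. With the replicate number as a block, limma gave adjusted p-values of 1.36e-05 for BMP2 and 3.14e-06 for BMP4. With the same total in every sample and no block both calls ended, at 0.47 (adjusted p = 0.28) for BMP2 and 0.68 (0.163) for BMP4, while with the block and the same total together both held, at 0.47 (0.0056) and 0.84 (0.000142). Without the block, the BMP2 call also ended with no filter (0.0526), with no intensity trend (0.0509) and without BMP2 replicate III (0.0922), IV (0.0907) or VI (0.10), or untreated replicate II (0.134) or III (0.0867). The BMP4 call also ended with edgeR (0.0540) and without BMP4 replicate III (0.0635) or VI (0.127), or untreated replicate II (0.101) or III (0.0690). The log2 difference between BMP2 and BMP4 was -0.15 (95% interval -1.04 to 0.73, adjusted p = 0.768 by limma). It was -0.29 with the block (adjusted p = 0.105) and -0.37 with the block and the same total together, which passed the threshold (0.0434).

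Within each replicate number, Ovol1 was lower with BMP5 and BMP7 than without ligand. BMP5 replicates II, III and VI had 161, 207 and 362 normalized counts, which were 70.3%, 65.3% and 67.3% of the same-numbered untreated samples. BMP7 replicates had 135, 231 and 413, or 59.0%, 72.9% and 76.8%. All 6 lay below their own number, although both groups overlapped the untreated range. The log2 changes were -0.72 (adjusted p = 0.233 by limma) and -0.68 (0.226). With the replicate number as a block they were -0.58 (adjusted p = 0.00815) and -0.55 (0.00953), a fall with each ligand. BMP3 replicates II, III and IV had 242, 304 and 529, from 95.9% to 106% of their own number. With Tgfb, Ovol1 had 6.93, 2.93 and 4.17 TPM in replicates III, II and I against 12.7, 7.10 and 7.70 TPM in untreated ones, with no overlap (log2 change -0.86, SE 0.311, adjusted p = 0.0544 by limma). The Tgfb value lay just short of the threshold and passed it with a pseudocount of 0.1 (adjusted p = 0.0498), with quantile normalization (0.0469) and without Tgfb replicate III (0.0252). With the replicate number as a block its adjusted p was 0.00336 by limma, although same-numbered samples of the Tgfb table did not pair by the check given below.

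**Figure D3:**
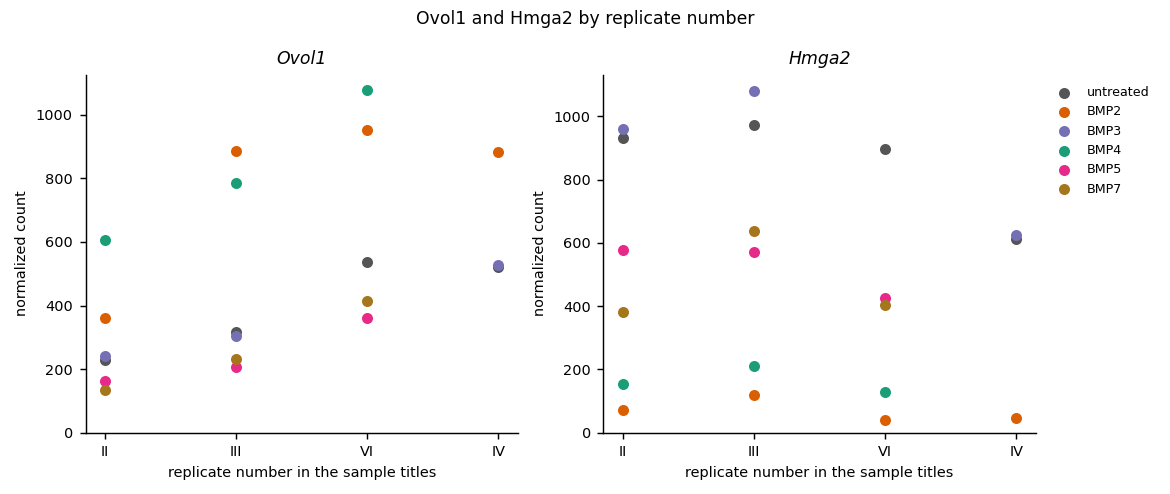
Normalized counts of Ovol1 (left) and Hmga2 (right) against the replicate number in the sample titles, with points coloured by treatment and each point a sample. Ovol1 values are lowest at number II in the untreated group and with every ligand. At II, III and VI the BMP4 samples lie above the untreated sample and the BMP5 and BMP7 samples below it.

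Some of the 5 ligands differed from each other for every regulator tested, as they did for most genes. The 5 include BMP3, which changed 0 of the 4 against untreated. The moderated F-test of limma among the 5 ligands gave adjusted p-values of 9.02e-09 for Hmga2, 1.04e-05 for Esrp1, 4.23e-10 for Grhl2 and 0.00105 for Ovol1, in a test that called 84.1% of all genes. BMP2 and BMP4 differed in 3 of the 4, with Esrp1 and Grhl2 higher and Hmga2 lower with BMP2, beside 33.4% of all genes higher and 33.4% lower. BMP5 and BMP7 differed in 0 of the 4, beside 0.00678% of all genes in each direction. Their log2 differences, BMP5 minus BMP7, were 0.17 for Hmga2 (95% interval -0.52 to 0.86), -0.07 for Esrp1 (-0.28 to 0.14), -0.05 for Grhl2 (-0.25 to 0.15) and -0.03 for Ovol1 (-0.98 to 0.92). Without a block, the intervals for Hmga2 and Ovol1 are wide enough to hold sizeable differences. With the replicate number as a block they were narrower, at -0.24 to 0.58 for Hmga2 and -0.38 to 0.31 for Ovol1.

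**Figure D4:**
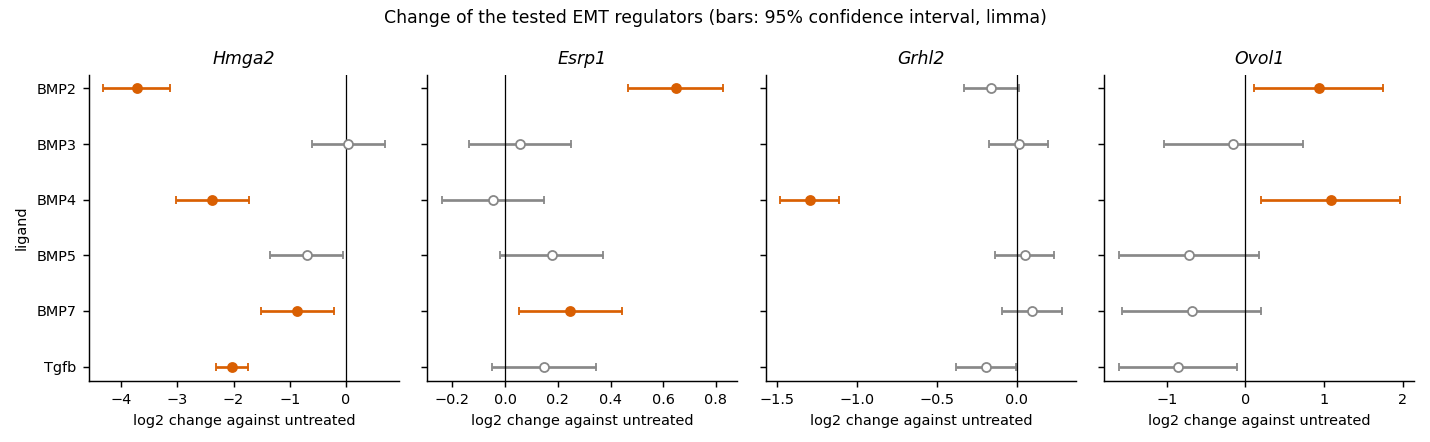
Log2 change against untreated on the horizontal axis for the 4 regulators tested, by ligand on the vertical axis, with bars for 95% confidence intervals from limma and filled points for an adjusted p under 0.05. The BMP points are on the log2(normalized count + 1) scale and the Tgfb points on the log2(TPM + 1) scale, and each panel has its own horizontal range. Hmga2 is lower with BMP2, BMP4, BMP7 and Tgfb, and Grhl2 is lower with BMP4.

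Other genes linked to the transition were followed as lists, and whether a transition took place was not tested. Changes with Tgfb are on the log2(TPM + 1) scale and those with BMPs on the log2(normalized count + 1) scale. Their sizes are not comparable between the 2 scales, here and in the paragraphs below. The epithelial guardian and junction genes were mostly higher. Of 27 tested, BMP2 raised 24 and lowered 1, BMP4 raised 20 and lowered 1, BMP5 raised 17, BMP7 raised 19, and Tgfb raised 19 and lowered 2. Their median log2 changes were 1.74, 0.69, 0.51, 0.65 and 0.83, with medians over all genes within -0.05 and 0.04. Genes changed in either direction made up 92.6% of the list with BMP2 against 75.1% of all genes tested, 77.8% against 65.1% with BMP4, 63.0% against 26.3% with BMP5, 70.4% against 32.4% with BMP7 and 77.8% against 56.7% with Tgfb. Of the 10 epithelium markers whose sums are given above, 3 are also in this list. The lists were chosen with earlier results of these data known. A share above that of all genes is thus no test, here or in the lists below. The BMP4 split became 14 and 6 once every sample had the same total, and 12 and 4 with quantile normalization. Cdh1, the E-cadherin whose loss defines the transition, rose 4.56-fold with BMP2, 1.92-fold with BMP5, 2.03-fold with BMP7 and 2.88-fold with Tgfb (adjusted p = 1.41e-12, 5.60e-06, 1.45e-06 and 2.44e-05 by limma). With BMP4 Cdh1 rose 1.20-fold (log2 change 0.26, adjusted p = 0.0475), less than the scaling shift, and the change was -0.14 with the same total in every sample (adjusted p = 0.181) and a fall of -0.40 with quantile normalization (0.000613). Epcam, an epithelial adhesion molecule, rose with all 4 and with BMP4, by 1.72-fold to 4.10-fold, and its BMP4 call ended with quantile normalization (0.07, adjusted p = 0.441).

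Among close relatives of the members, Esrp2 rose 2.32-fold with BMP2 and 1.77-fold with Tgfb, and had a log2 change of -0.08 with BMP4 (adjusted p = 0.597 by limma). Ovol2 rose 2.40-fold with BMP2, 3.08-fold with BMP4, 2.04-fold with BMP7 and 1.74-fold with Tgfb. Snai3, a Snai family member with little known role in the transition, rose 3.21-fold with BMP2, 2.65-fold with BMP5, 3.14-fold with BMP7 and 3.53-fold with Tgfb. The Tgfb fold is on the log2(TPM + 1) scale, with Snai3 means of 0.923 TPM in untreated and 5.79 TPM in Tgfb samples. With BMP4 the log2 change of Snai3 was -0.34 (adjusted p = 0.40). Snai3 was listed at 0 in both mesenchymal samples, and Twist2 at 0 TPM in all 6 organoid samples of the Tgfb table. In the junction group, Cldn4, a claudin of tight junctions, rose most with BMP2, BMP5, BMP7 and Tgfb, by 48.5-fold, 7.12-fold, 7.39-fold and 32.1-fold. With BMP4 the keratin gene Krt8 rose most, by 3.17-fold, and Ehf, an epithelial ETS factor, fell 2.45-fold. Cdx2, the intestinal homeobox factor, fell 1.34-fold with BMP2 and 1.56-fold with Tgfb.

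The mesenchymal side split gene by gene. Of 20 effectors and other mesenchymal regulators, 11 passed the filter in the BMP table and 8 in the Tgfb table. With BMP2, 8 were higher and 2 lower (median log2 change 2.11), with BMP4 1 and 5 (-0.75), with BMP5 7 and 0 (1.02), with BMP7 7 and 1 (1.26) and with Tgfb 7 and 0 of 8 (1.73). BMP2 changed 90.9% of the effectors against 75.1% of all genes, BMP5 63.6% against 26.3%, BMP7 72.7% against 32.4% and Tgfb 87.5% against 56.7%. The share changed with BMP4, 54.5%, was below the 65.1% over all genes. Fn1, the matrix glycoprotein fibronectin, rose most, by 113-fold with BMP2 from 17.4 to 40.8 normalized counts in untreated samples to 1280 to 5710. It rose 13.2-fold with BMP5 and 14.1-fold with BMP7. With Tgfb it rose 7.80-fold on the log2(TPM + 1) scale, which understates changes of low genes. That fold cannot be ranked against the BMP folds. Untreated samples of the Tgfb table had 0 to 0.0837 TPM of Fn1 and Tgfb samples 4.24 to 9.44 TPM, against 2439 TPM in fresh mesenchymal cells. With BMP4 the log2 change of Fn1 was -0.13 (adjusted p = 0.817 by limma). Vim, the intermediate filament of mesenchymal cells, went the other way and fell 4.19-fold with BMP2, 6.40-fold with BMP4 and 2.27-fold with BMP7. Its log2 change was 0.17 with Tgfb (adjusted p = 0.50) and 0.02 with BMP5 (0.954). Prrx1, a mesenchymal homeobox factor, rose 8.28-fold with BMP4 and fell 2.26-fold with BMP2, where the call ended with quantile normalization (-0.93, adjusted p = 0.0693). The fibroblast marker sums given above were also higher with Tgfb than in its untreated samples.

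Genes of the partial transition seen in carcinomas, mostly laminin-332 chains, integrins and urokinase components, were mostly higher with BMP2, BMP5, BMP7 and Tgfb. Of 12 tested, 11 were higher and 1 lower with BMP2 (median log2 change 3.39), 11 and 1 with BMP5 (1.81), 10 and 1 with BMP7 (1.85), 6 and 3 with BMP4 (0.69), and 10 and 1 of 11 with Tgfb (2.94). All 12 were thus changed with BMP2 and BMP5, where 75.1% and 26.3% of all genes were, and 9 of 12 (75.0%) with BMP4 against 65.1%. With BMP7 the shares were 91.7% and 32.4%, and with Tgfb 100% and 56.7%. Lama3, a laminin-332 chain, rose 144-fold with BMP2, 30.0-fold with BMP5, 37.7-fold with BMP7, 4.82-fold with BMP4 and 111-fold with Tgfb. Tgfbi, a secreted matrix protein, fell 7.46-fold with BMP2, 2.09-fold with BMP5, 2.51-fold with BMP7 and 2.88-fold with Tgfb, and rose 4.33-fold with BMP4. Cd44, the hyaluronan receptor, fell 2.63-fold with BMP4 and rose 8.44-fold with BMP2. BMP3 changed 0 genes of any list.

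Genes listed as a readout of Tgfb and Smad signalling were mostly higher with BMP2, BMP4, BMP5, BMP7 and Tgfb. Of 10 tested, 10 were higher with BMP2, 9 with BMP4 (1 lower), 8 with BMP5, 10 with BMP7 and 9 with Tgfb. Among all genes tested, BMP2 raised 36.8%, BMP4 33.7%, BMP5 16.5%, BMP7 19.2% and Tgfb 27.4%. Id3, an inhibitor of differentiation induced by BMP-type Smads, rose 63.8-fold with BMP2, 84.8-fold with BMP4, 27.2-fold with BMP7 and 2.40-fold with Tgfb. Pmepa1, a feedback inhibitor of Tgfb-type Smads, rose 34.3-fold with Tgfb, 22.3-fold with BMP2, 10.4-fold with BMP5 and 12.5-fold with BMP7, and 1.91-fold with BMP4. Tgif1, a Smad corepressor, fell 2.17-fold with BMP4 and rose with BMP2, BMP5, BMP7 and Tgfb. BMP2 and BMP4 differed for Tgif1 (11.9-fold, adjusted p = 1.06e-13 by limma). The splicing regulators were mixed, with 4 higher and 2 lower of 8 with BMP2, 2 and 3 with BMP4, 4 and 0 with BMP5, 4 and 0 with BMP7, and 3 and 2 of 6 with Tgfb. The shares changed were 75.0% with BMP2 and 62.5% with BMP4, near the 75.1% and 65.1% of all genes, so these counts say nothing about the splicing list. They were 50.0% with BMP5 against 26.3%, 50.0% with BMP7 against 32.4% and 83.3% with Tgfb against 56.7%. Qk, a splicing factor that rises in the transition, rose 15.8-fold with BMP2, 3.78-fold with BMP5 and 3.60-fold with BMP7. Rbm47, which supports epithelial splicing, rose 2.46-fold with BMP4, and Srsf1, a general splicing factor, fell 2.11-fold with it.

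**Figure D5:**
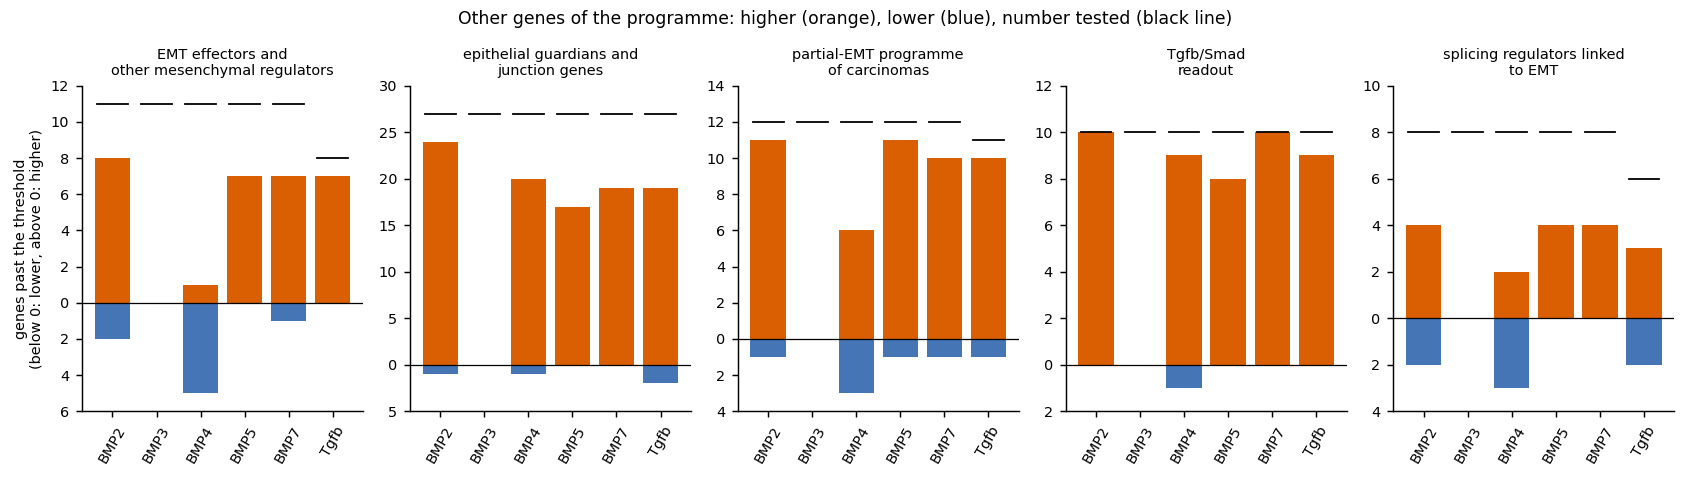
Number of genes past the threshold in 5 gene lists by ligand, with higher genes above 0 in orange, lower genes below 0 in blue and the number tested as a black line. Each panel has its own vertical scale. The bars are empty for BMP3, and BMP4 has the most lower genes in the effector list, at 5 of 11.

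Over the 20 samples of the BMP table, the gene whose log2 level ran closest to Hmga2 was Ccnd2, a G1 cyclin, at a Pearson correlation of 0.985. For Esrp1 it was Fbxw8 (0.982), for Grhl2 Zfp275 (0.983) and for Ovol1 Surf1 (0.919). The samples share 6 treatments, a common scaling and replicate numbers, so these values describe the table and carry no test.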

How the data were processed

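mRNA was sequenced in 26 organoid and 2 mesenchymal samples. Per the submitters' processing notes, Trim Galore, Salmon and DESeq2 were used with build GRCm39, and their roles are not given. The deposited BMP values are a signal: counts per gene that the authors scaled by a factor for each sample, as read from the values. All 180721 low values, up to 20 reads, were whole multiples of 1 read within 0.1 (100%), so reads were recovered. Values there carry 3 significant digits. The deposited Tgfb and mesenchymal values are TPM, per their column sums, and depth is unknown there. No columns were left unmapped.

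Tests used limma 3.58.1 (R 4.3.3) on log2(value + 1), two-sided, Benjamini-Hochberg over all 14746 or 12959 genes with a mean of at least 10 or 1, and all 6 BMP-table groups in 1 fit. edgeR 4.0.16 and DESeq2 1.42.0 on recovered reads, other scalings, filters, pseudocounts and left-out samples were alternatives. The script was tested on simulated data. Counting intervals are exact at 95%. The rule for naming other genes took 8 fixed genes, the top riser and faller of each list and comparison, and the gene most like each member. Members and lists were chosen with earlier results of these data known.

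Deviations from the group means of same-numbered samples correlated at 0.158 or more for every pair of BMP3, BMP4, BMP5 or BMP7 with untreated, so their numbers were taken to pair samples. For BMP2, 3 of 4 pairs were over 0.1 (0.018 to 0.421), so not every pair met the rule, and for Tgfb 0 of 3 were (0.004 to 0.070). Runs are not assigned to samples in the labels, so a run effect was not tested. Proteins were not analysed here, and 1 of the marker lists is not reported here.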

Additional observations from a re-analysis of the deposited data

Results flagged for a closer look

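Of 20 groups of 4 samples checked for 1 sample lying far from the other 3, 3 stood out. Chance gives about 1 in 20 for values that vary freely, a rate that cannot be applied to the genes at 0 to a few reads. Ovol1 was at 362 normalized counts in BMP2 replicate II, while the other 3 BMP2 samples had 883 to 952. Without that sample the log2 change of Ovol1 with BMP2 was 1.26, against 0.93 with it. Cdh2 was at 8.23 normalized counts in BMP2 replicate IV, against 2.53 to 3.41 in the others. Twist1 was at 0.888 normalized counts, 1 read, in untreated replicate II and at 0 in the other untreated samples, where the ties at 0 alone set it apart.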

How the results depend on the processing

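Over all alternatives run, the fall of Hmga2 with BMP2, BMP4 and Tgfb and of Grhl2 with BMP4 passed the threshold in every fit that tested them, as did Snai2 with BMP2, BMP4, BMP5 and BMP7 at the lower filter (15 or 16 alternatives each, added after seeing the data, adjusted p up to 0.0446). No member past the threshold changed direction. At a filter of a mean of at least 1, more members were tested, 7 in all. The counts of members changed became 5 for BMP2, 5 for BMP4 and 1 for BMP5. Of these, 3, 4 and 1 were lower and 2, 1 and 0 higher. Of all genes in the same fits, 30.4%, 23.8% and 6.24% were lower. With no filter 10 were tested, and the counts were 5 for BMP4, 1 for BMP5, 1 for BMP7 and 2 for Tgfb. The 2 with Tgfb were lower, beside 14.8% of all genes. In the fits below 4 were tested, except 2 with Tgfb at a filter of a mean of at least 10. Such counts show how calls depend on the settings and say nothing about the regulators as a set. For BMP5 the count was 1 with only the 2 groups compared, 1 with DESeq2, 2 with the replicate block and 2 with the block and the same total together, the last chosen after seeing the data. For BMP7 it was 1 with the same total, 1 with quantile normalization and 0 with no intensity trend, and 0 to 2 when a sample was left out. The replicate block kept Hmga2 and Esrp1 for BMP7 (adjusted p = 0.000413 and 0.0335 by limma). It also added Ovol1 as a fall (0.00953). For Tgfb it was 2 with a pseudocount of 0.1, 0 with a filter of a mean of at least 10, where Hmga2 is not tested, 3 with quantile normalization, and 1 to 2 when a sample was left out. Where no construction accounts for such a change, the cause was not tested.

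The replicate block gave 2 for Tgfb by adding Ovol1 (-0.86, adjusted p = 0.00336 by limma), although same-numbered samples there did not pair by the check. For BMP2 it left the 3 calls in place, and the block alone changed no other member call than those given for BMP5 and BMP7. Reversed directions all fell on differences short of the threshold. With BMP3 they were Hmga2 -0.0214 with the block and -0.0195 with the block and same total, Ovol1 0.0046 and 0.0061 in the same fits, and Grhl2 -0.0019 with edgeR. Leaving out 1 sample gave -0.12 to 0.28 for Hmga2, -0.476 to 0.0868 for Ovol1 and -0.0218 to 0.0322 for Grhl2 with BMP3, and -0.168 to 0.0509 for Esrp1 with BMP4. For Ovol1 it gave -0.35 to 0.18 for BMP2 against BMP4 and -0.43 to 0.38 for BMP5 against BMP7.

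Over all genes, BMP5 called 3884 against 5956 with the block and same total, 2515 without BMP5 replicate III and 2532 without BMP5 replicate VI. BMP3 called 0 against 3 with only the 2 groups, 1 with DESeq2 and 1 without BMP3 replicate II. BMP5 against BMP7 called 2, and 0 to 23 under the alternatives. The share of higher genes among those called moved from 48.9% to 31.8% for BMP2 and from 51.7% to 31.1% for BMP4 with the same total, and with quantile normalization from 62.5% to 49.8% for BMP5 and from 59.4% to 48% for BMP7. Depth limits Snai1, Zeb1, Zeb2, Twist1 and Cdh2, at a few reads per sample.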

Other observations

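The mesenchymal samples, 1 fresh and 1 immortalised and sorted, differed in other genes of the programme. Prrx1, a mesenchymal homeobox factor, was at 7.64 TPM in fresh and 127 TPM in immortalised cells. Twist2 was at 4.80 TPM in fresh cells and listed at 0 in immortalised ones. Vim stood at 1830 and 1976 TPM, Fn1 at 2439 and 1543 TPM, and Tcf4, a helix-loop-helix factor linked to the transition, at 35.6 and 23.9 TPM. With 1 sample each, these differences have no replicate check, and growth in culture, immortalisation and the sort cannot be told apart.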
